A study of Mus musculus with 15 samples.

Results

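Long intergenic noncoding RNAs (lincRNAs) are long transcripts that lie outside protein-coding genes and have no long reading frame. The genes described here were those that the GENCODE mouse annotation, release M21, types as lincRNA and that were selected on a level of at least 20 CPM (counts scaled to a common total) in the counts summed over 9 GV or over 6 MII oocytes. Malat1, Neat1, Meg3 and Kcnq1ot1 were left out by name, and CPM was taken after leaving out the unnamed feature ENSMUSG00000119584. There were 104 such genes among 5854 annotated lincRNA genes, of which 2311 had any count, and among 28785 gene IDs with a count in all. Of the 104, 64 passed in both stages, 14 in GV only and 26 in MII only. Because the levels in both stages chose the genes, their levels and stage ratios are given as a description with no test.

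The study sequenced total RNA of single mouse oocytes with MATQ-seq, a method that primes along whole transcripts and so captures RNA with and without a poly(A) tail. Oocytes at the germinal vesicle (GV) stage are fully grown and held in meiotic prophase with an intact nucleus. Those in MII are ovulated eggs arrested at the second meiotic metaphase. All donors were female mice of about 6 to 8 weeks that received 7 IU of pregnant mare serum gonadotropin. The 9 GV oocytes were collected 44 h after it. For the 6 MII oocytes, 7 IU of human chorionic gonadotropin followed about 48 h later, and after 20 h more the cumulus-oocyte complexes were taken from the oviducts and digested with hyaluronidase at 300 IU/mL. The labels name neither a strain nor a mouse, so oocytes may share animals, each stage counts as 1 sample, and no p-value, standard error or gene called changed is given.

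Transcription ceases in the fully grown mouse oocyte and does not resume until after fertilization, so MII RNA is what remains of the RNA stored during growth. Many stored transcripts are deadenylated and degraded during maturation, and others are kept or polyadenylated later. Oocytes are also known for transcripts, many of them lincRNAs, that start in long terminal repeats of endogenous retroviruses. Most of the genes described here carry provisional symbols (Gm numbers, RIKEN clone names, expressed-sequence-tag names), which stand for no assigned function.

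Total counts ran from 3687610 to 7103063 in GV and from 808641 to 2348281 in MII oocytes. The unnamed feature took 15.7 to 61.2% of the counts in MII, most in MII5 (52.6%) and MII6 (61.2%), 3.43 to 11.2% in GV7 to GV9, and none in GV1 to GV6. The column headers also separate GV1 to GV6, which begin with Y, from GV7 to GV9, which begin with E. Those of all MII oocytes begin with exon, and the labels do not say what these beginnings stand for. No header kind occurs in both stages, so a difference between stages cannot be told apart from one between kinds of file. The oocyte markers (zona pellucida genes, Gdf9, Bmp15 and others; 13 of 14 had counts) summed to 7481 to 29619 CPM in GV and 8064 to 16154 CPM in MII. All 15 cumulus and granulosa markers had counts, with summed levels of 102 to 357 CPM in GV, highest in GV1, and 37.1 to 127 CPM in MII, where 7 of them were at 0. Theca and stroma markers summed to at most 25.8 CPM in GV and 51.2 CPM in MII, and blood and immune markers to at most 4.55 and 2.59 CPM. The oviduct list reached 1325 CPM in GV and 1492 CPM in MII, with 5 of its 7 genes at 0 in MII. Nearly all of that was Cdh1, an adhesion gene that oocytes also express, and its other genes together had at most 11.5 CPM in GV and 0.783 CPM in MII.

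The promoters of the most abundant genes are shown first, since they mark where these transcripts start. They come from RefSeq's table for GRCm38.p6 (250 bases before the annotated start and 50 after it), an older build than the GRCm39 named in the submitters' processing notes. The table matched 53 of the 104 genes by symbol, with 61 promoters. The bases from the start on are in capitals. Gm1965 lies at chr6:89140744-89141043, plus strand; C86187 at chr7:46975862-46976161, minus strand; and Gm1070 at chr6:71293515-71293814, plus strand.
Gm1965: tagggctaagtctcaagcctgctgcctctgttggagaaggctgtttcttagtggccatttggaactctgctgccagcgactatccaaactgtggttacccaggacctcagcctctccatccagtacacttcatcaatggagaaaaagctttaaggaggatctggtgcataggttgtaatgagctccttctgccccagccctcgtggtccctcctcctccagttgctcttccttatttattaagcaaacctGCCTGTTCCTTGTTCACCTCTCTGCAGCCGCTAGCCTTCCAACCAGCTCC
C86187: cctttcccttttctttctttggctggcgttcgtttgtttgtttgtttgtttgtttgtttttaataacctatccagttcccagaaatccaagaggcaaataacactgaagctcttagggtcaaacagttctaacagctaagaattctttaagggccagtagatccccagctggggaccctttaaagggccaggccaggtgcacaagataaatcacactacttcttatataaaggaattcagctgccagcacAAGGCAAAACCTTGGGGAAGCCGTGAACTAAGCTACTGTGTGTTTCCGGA
Gm1070: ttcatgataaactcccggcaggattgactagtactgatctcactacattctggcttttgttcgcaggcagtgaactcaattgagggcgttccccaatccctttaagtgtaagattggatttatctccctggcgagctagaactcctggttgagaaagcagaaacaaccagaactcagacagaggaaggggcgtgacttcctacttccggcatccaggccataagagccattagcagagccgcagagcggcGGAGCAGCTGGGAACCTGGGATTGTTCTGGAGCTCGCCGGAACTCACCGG

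Of these, C86187 holds the letters TATAAA before its start. Over all promoters of the 104 genes, TATAAA was found on either strand in 12 of 61 (19.7%), against 13.6% of the 32851 promoters in the table, and TAATTG in 13 (21.3%) against 8.00%. Such matches are a description of letters in a window and not of binding sites. The 61 promoters are not independent. Those of Gm16497, Gm19299 and Gm3143, printed below, hold TAATTG on the other strand within a stretch they share. The share of either motif in promoters of other lincRNA genes was not computed. CG dinucleotides in the 300 bases numbered 3 in Gm1965, 4 in C86187 and 12 in Gm1070. The last lay above the upper quartile of promoters of the 104 genes, which was 9. The median was 4 in promoters of the 104 genes, also 4 in those of other lincRNA genes, and 14 in those of protein-coding genes.

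A set of 4 genes on different chromosomes had promoters related to each other in sequence, which is why they are printed here. Gm16497 lies at chr12:14261284-14261583, plus strand; Gm17751 at chr1:76488883-76489182, plus strand; Gm19299 at chr9:67133311-67133610, plus strand; and Gm3143 at chr3:34716613-34716912, minus strand. Capitals mark 3 words that all 4 hold.
Gm16497: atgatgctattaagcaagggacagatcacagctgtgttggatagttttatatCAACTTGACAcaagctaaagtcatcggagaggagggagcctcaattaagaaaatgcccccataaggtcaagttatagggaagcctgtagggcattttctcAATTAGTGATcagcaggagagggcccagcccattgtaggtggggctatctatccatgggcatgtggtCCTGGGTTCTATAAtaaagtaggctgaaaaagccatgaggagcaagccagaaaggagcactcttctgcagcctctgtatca
Gm17751: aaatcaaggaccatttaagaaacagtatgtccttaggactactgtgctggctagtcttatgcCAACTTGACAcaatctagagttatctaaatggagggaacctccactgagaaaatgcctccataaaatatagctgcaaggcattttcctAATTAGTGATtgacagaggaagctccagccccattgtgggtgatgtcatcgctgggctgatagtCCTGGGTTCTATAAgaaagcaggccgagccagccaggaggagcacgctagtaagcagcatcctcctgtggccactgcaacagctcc
Gm19299: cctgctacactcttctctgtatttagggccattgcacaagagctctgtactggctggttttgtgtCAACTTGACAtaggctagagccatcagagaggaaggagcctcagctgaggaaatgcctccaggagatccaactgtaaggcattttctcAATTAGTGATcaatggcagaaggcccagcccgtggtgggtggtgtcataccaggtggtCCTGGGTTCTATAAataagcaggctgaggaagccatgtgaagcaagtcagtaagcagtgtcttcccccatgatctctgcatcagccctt
Gm3143: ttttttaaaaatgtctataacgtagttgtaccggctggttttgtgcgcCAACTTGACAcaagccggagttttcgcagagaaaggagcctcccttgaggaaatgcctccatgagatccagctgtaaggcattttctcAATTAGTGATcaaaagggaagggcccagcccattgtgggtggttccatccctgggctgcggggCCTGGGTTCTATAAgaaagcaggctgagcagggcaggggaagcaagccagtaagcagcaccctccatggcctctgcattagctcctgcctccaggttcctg

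The 6 pairs among them aligned at 72.8 to 78.7% identity over 238 to 265 bases. The word CAACTTGACA occurs in 82 of all promoters (0.250%), AATTAGTGAT in 59 (0.180%) and CCTGGGTTCTATAA in 18 (0.0548%), on either strand. The first base of CCTGGGTTCTATAA stood 31, 36, 39 and 51 bases before the start of Gm16497, Gm17751, Gm19299 and Gm3143. In all, 70 genes had a promoter that aligned to at least 1 of the 4, among them D6Ertd527e, Spin1 and Pla2g4c. Apart from the 4 themselves, 13 of the other 66 (19.7%) had at least 20 CPM in a stage, against 18.5% of all genes in the table, a share near that background. No repeat annotation was used here, and whether these promoters are repeat copies was not tested.

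The 4 genes with related promoters did not share 1 pattern of levels. Gm19299 had 44.5, 66.8 and 110 CPM as lowest, median and highest of the GV oocytes and 80.0, 112 and 179 CPM in MII. Gm16497 had 21.9, 49.7 and 238 CPM in GV and 32.9, 42.6 and 173 CPM in MII, and Gm3143 8.16, 26.0 and 93.6 CPM in GV and 6.26, 31.2 and 45.8 CPM in MII. The ranges of both stages overlapped in each of these. Gm17751 stood at 4.36 to 23.5 CPM in the first 6 GV oocytes and at 72.5, 75.1 and 83.7 CPM in GV7, GV8 and GV9, with no overlap, and at 7.84 to 28.0 CPM in MII.

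Together the 104 genes made up 1.07% of GV counts (exact binomial 95% interval 1.06 to 1.07%) and 1.08% of MII counts (1.07 to 1.09%); intervals here and below cover counting error only. By oocyte the summed level was 8526, 10130 and 14139 CPM as lowest, median and highest in GV, and 8922, 9810 and 15375 CPM in MII, so the stages overlapped almost wholly. The 104 genes held 83.1% of all lincRNA counts in GV and 83.4% in MII. A level in CPM is a share of the counted RNA, and fewer molecules per oocyte cannot be told apart from more of other RNAs. Detection was nearly complete, with 95 of the 104 genes counted in every oocyte. A rule of at least 20 CPM favours this, and the share over all genes at that level was not computed, so nothing is read from it.

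**Figure D1:**
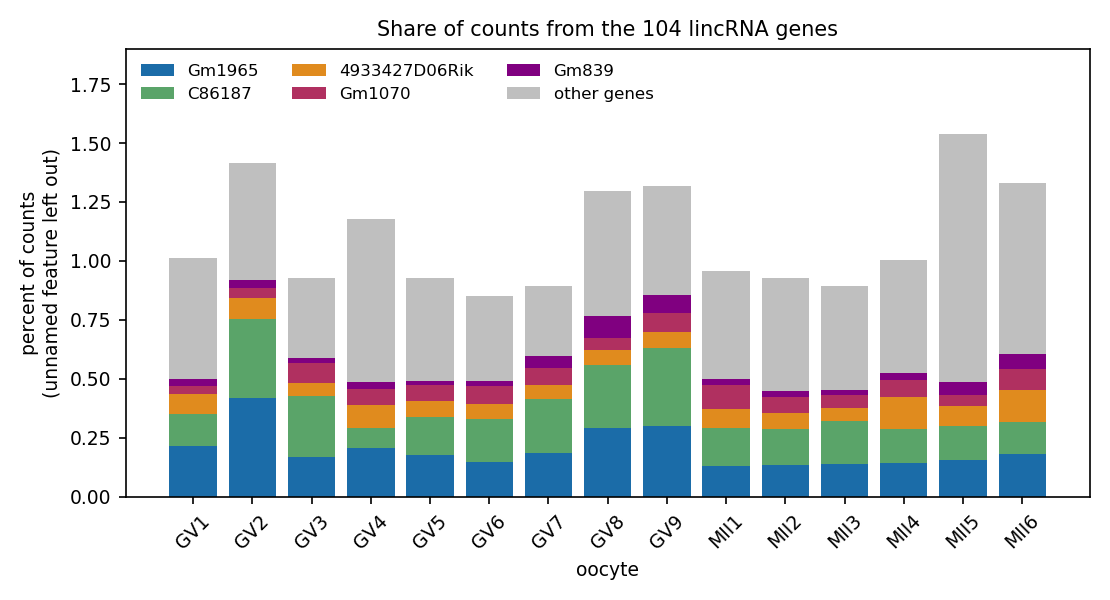
Stacked bars give, for each of the 15 oocytes, the percent of counts (unnamed feature left out) from the 104 lincRNA genes, with the 5 most abundant by GV level in colour and the other genes in grey. The sum lies between 0.853 and 1.54%, highest in MII5, and the coloured share of Gm1965 and C86187 takes more of the bar in most GV oocytes than in MII.

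A few genes carried most of this. Gm1965 (ENSMUSG00000090254) and C86187 (ENSMUSG00000110001), both typed as noncoding by RefSeq as well, together gave 40.9% of the 104 genes' counts in GV and 27.7% in MII, and the top 10 gave 67.0 and 60.6%. By oocyte the pair gave from 24.8 to 53.2% in GV and from 19.5 to 35.8% in MII, with overlap. Gm1965 is a 3-exon gene on chromosome 6 (GRCm38.p6, RefSeq bounds 89140994 to 89147370) with its nearest protein-coding gene, Plxna1, 169 kb away. It had 1470, 2072 and 4203 CPM as lowest, median and highest in GV and 1313, 1407 and 1793 CPM in MII. All 6 MII oocytes lay below the GV median. C86187 is a 4-exon gene on chromosome 7 (GRCm38.p6, 46967710 to 46975911) that overlaps the noncoding Gm31941 on the opposite strand. It had 851, 2255 and 3321 CPM in GV and 1390, 1473 and 1801 CPM in MII.

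The stage ratio used from here on is the log2 ratio of MII to GV in summed counts, taken relative to the median gene. That gene had a log2 CPM ratio of −0.29 over the 10410 genes that reached 5 CPM in either stage. The spread beside a ratio combines the standard deviations of the oocytes of both stages. By this measure Gm1965 stood at −0.33 (spread 0.53) and C86187 at −0.18 (spread 0.79), so neither differed by more than the oocytes did. C86187 was the least variable of the 104 genes in MII, with a coefficient of variation of 9.93% at equal depth, against 39.4% in GV.

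Chromosome 6 held 14 of the 104 genes (13.5%), while 4.05% of annotated lincRNA genes lie there. It also held 41.6% of the summed GV level of the 104 genes, 4438 CPM. That level was carried mostly by Gm1965, 4933427D06Rik, Gm1070 and Gm839, at 2243, 730, 641 and 377 CPM. 4933427D06Rik and Gm839 both stand within 100 kb of Gm1965, at gaps of 31.0 and 63.8 kb, and no other pair among the 104 lies within 100 kb. 4933427D06Rik, on the same strand as Gm1965, had 582, 693 and 983 CPM in GV and 574, 829 and 1368 CPM in MII. It was the least variable gene in GV, with a coefficient of variation of 16.0%. Gm839, on the opposite strand, had 174 to 337 CPM in GV1 to GV6, 520, 920 and 790 CPM in GV7, GV8 and GV9, and 224, 280 and 632 CPM as lowest, median and highest in MII. It thus separated the GV sets without overlap, which its neighbours did not.

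Gm1070, also on chromosome 6 (GRCm38.p6, 71293765 to 71302880), overlaps the muscle methyltransferase gene Smyd1 on the opposite strand and is typed protein-coding by RefSeq. It had 376, 652 and 813 CPM in GV and 456, 710 and 1032 CPM in MII, with a stage ratio of 0.42 (spread 0.61). The strand used in counting was not given in the sources used here, so reads of overlapping genes cannot be told apart. D6Ertd474e had 76.4, 189 and 582 CPM in GV and 99.6, 250 and 426 CPM in MII. Gm47432, on chromosome 12, had 79.3, 283 and 460 CPM in GV and 82.1, 169 and 398 CPM in MII, and A730082K24Rik, on chromosome 7, had 87.4, 199 and 355 CPM in GV and 183, 291 and 626 CPM in MII. For each of these the stages overlapped. Per kilobase of exon the order in GV was Gm1965 (915 CPM per kb), C86187 (875), Gm47432 (325), 4933427D06Rik (251), Gm1070 (223) and Gm839 (205). In MII it was C86187 (634), Gm1965 (599), Gm15507 (399), 4933427D06Rik (323), C87198 (259) and Gm1070 (244). In both stages Gm1965 and C86187 differed by less than the standard deviation between oocytes.

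**Figure D2:**
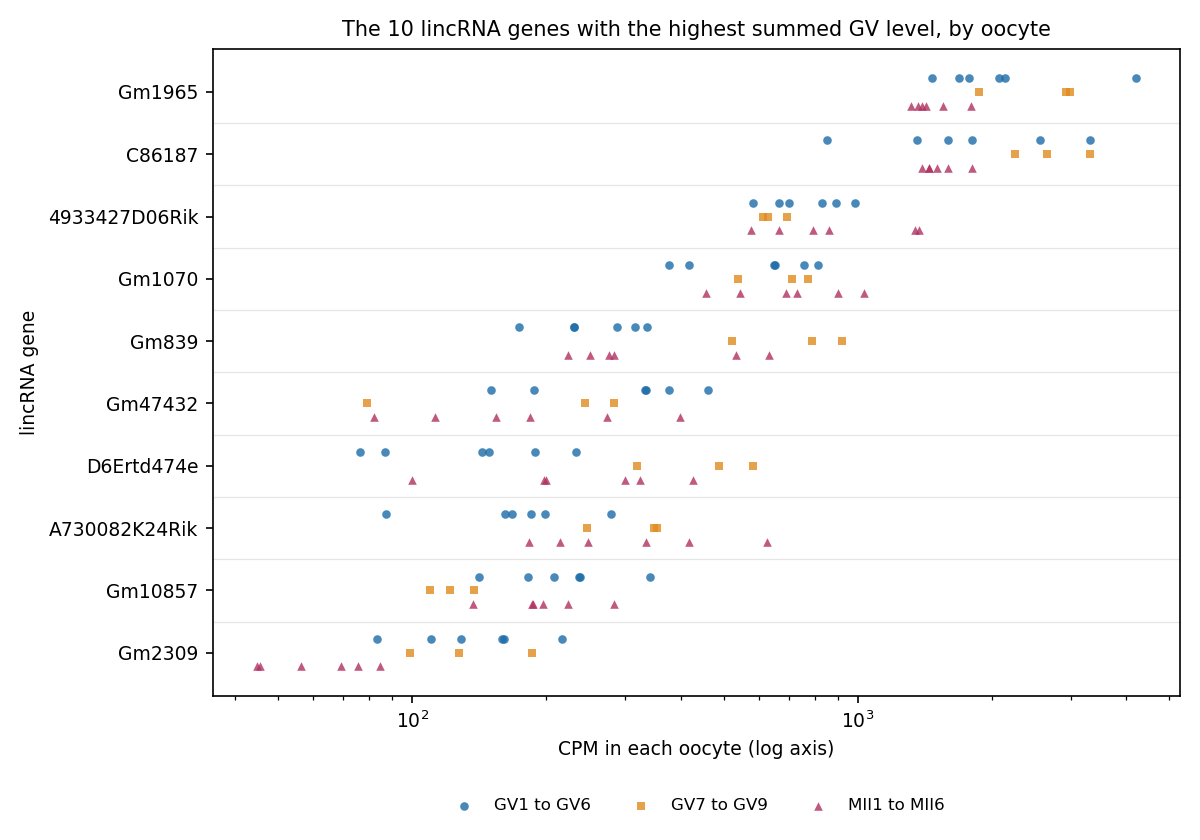
Each point is the level (CPM, log axis) of 1 gene in 1 oocyte for the 10 genes with the highest summed GV level; circles are GV1 to GV6, squares GV7 to GV9 and triangles MII1 to MII6. MII levels of Gm1965 and C86187 cluster tightly, while Gm839 and D6Ertd474e are higher in GV7 to GV9 than in GV1 to GV6 with no overlap.

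Across the 104 genes the median stage ratio was 0.63, with quartiles of −0.02 and 1.32, against a median of 0.12 over all 6430 genes with at least 20 CPM. It was 0.56 over 166 lincRNA genes from 5 to under 20 CPM, with quartiles of −0.37 and 1.20. Of these 166, 52 were at least 2-fold higher in MII and 20 at least 2-fold lower. The median of the 104 genes moved with the scaling. It was −0.32 when CPM held the unnamed feature and no median gene was taken off. Of the 104, 34 were at least 2-fold higher in MII (23 of them by more than their spread), where 13.2% of the 6430 genes were. At least 2-fold lower were 6 (5 by more than their spread), where 7.81% of the 6430 genes were. The share of the 6430 genes that differed by more than their spread was not computed. Because the choice of genes used these levels, nothing is read from those shares. Without MII5 and MII6, the oocytes with the largest share of the unnamed feature, 22 genes were at least 2-fold higher and 7 lower. The share of the 6430 genes was not computed for this either. MII5 alone stood apart in the median level of the 104 genes relative to its median gene, at 1.82 on the log2 scale, against 0.29 to 1.003 in the other MII and −0.40 to 0.68 in the GV oocytes. The part of the unnamed feature in these ratios was not tested.

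**Figure D3:**
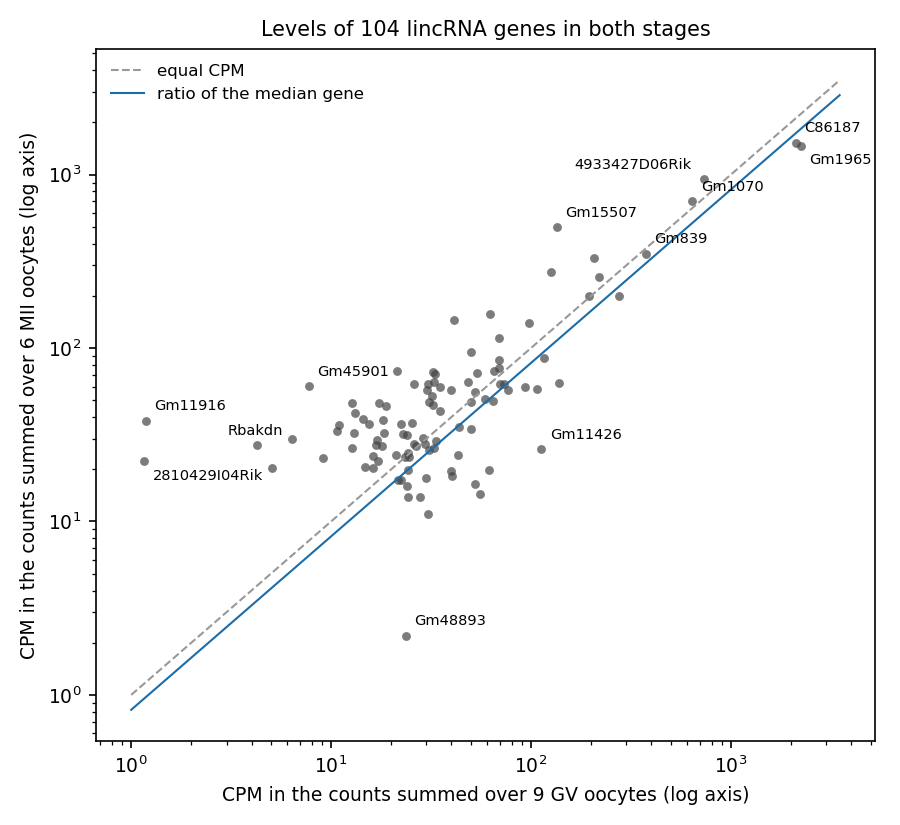
Each point is 1 of the 104 lincRNA genes, with its CPM in summed GV counts (x, log axis) against summed MII counts (y, log axis); the dashed line marks equal CPM and the solid line the ratio of the median gene. The most abundant genes lie near the lines, Gm15507 and Gm45901 above them, and Gm11426 and Gm48893 below.

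Ranges of CPM that did not overlap between stages were found for 2 genes higher in MII, Gm45901 and Gm33035, where 1.12% of the 6430 genes showed this, and for none lower in MII, where 1.24% did. For levels relative to each oocyte's median gene, 3 were higher without overlap (Gm32442 in addition), where 2.36% of the 6430 genes were, and none lower, where 0.731% were. Gm45901, which overlaps Aldh1l1, a folate enzyme gene, on the same strand, had 1.41, 3.72 and 24.5 CPM in GV and 26.8, 36.4 and 192 CPM in MII. Its ratio was 3.25 (spread 1.56), and 2.65 without MII5. Gm33035 (named here because its ranges did not overlap, after its values were seen) had 14.5, 27.6 and 41.1 CPM in GV and 49.3, 61.2 and 95.1 CPM in MII, with a ratio of 1.53 (spread 0.62). In this gene MII5, at 64.0 CPM, was not the highest oocyte.

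Gm15507 was the most abundant of the genes at least 2-fold higher in MII. It overlaps Nr2e3, a photoreceptor nuclear receptor gene, and had 40.1, 104 and 295 CPM in GV and 170, 298 and 1691 CPM in MII. The ratio of 2.17 (spread 1.57) became 1.50 without MII5, the oocyte at 1691 CPM. C87198 had 36.7, 136 and 222 CPM in GV and 89.0, 194 and 768 CPM in MII, again highest in MII5, and its ratio of 1.41 was within its spread of 1.50. Rbakdn, next to the zinc-finger gene Rbak, had 0, 2.89 and 11.2 CPM in GV and 2.56, 24.0 and 46.6 CPM in MII (ratio 2.98, spread 1.82). F730016J06Rik had 1.52, 4.69 and 15.4 CPM in GV and 8.78, 23.6 and 67.2 CPM in MII (ratio 2.52, spread 1.33). Gm43303 had 2.58, 9.57 and 36.2 CPM in GV and 19.9, 43.1 and 91.4 CPM in MII (ratio 2.22, spread 1.24). In these the upper GV oocytes reached into the MII range.

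For 3 of the genes with high ratios 1 oocyte decided the value. Gm11916 had the highest ratio of all, 5.28, with 175 CPM in MII2 and at most 1.57 CPM in every other MII oocyte; without MII2 the ratio was −0.85. 2810429I04Rik, whose ratio was 4.54, had 103 CPM in MII2 and at most 0.864 CPM in the others, and without MII2 the ratio was −1.56. Both pass the 20 CPM rule only through that oocyte, and both had under 6 CPM in every GV oocyte. Gm41414 had 94.8 CPM in MII5 and 5.48 to 13.2 CPM in the other MII oocytes, and its ratio of 2.28 became 1.10 without MII5.

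Among the genes lower in MII, Gm48893 had the lowest ratio, −3.10 (spread 1.87), from 13 counts over all MII oocytes. It was at 0 in MII1 and MII5 and reached 7.68 CPM in MII6, against 4.06, 15.0 and 94.4 CPM as lowest, median and highest in GV. With only GV1 to GV6 on the GV side the ratio was −1.82, and with only GV7 to GV9 it was −4.64. Gm11426 had 33.9, 90.2 and 268 CPM in GV and 9.33, 22.5 and 64.0 CPM in MII (ratio −1.82, spread 1.36). Here the lower GV oocytes were GV7 to GV9, at 33.9 to 49.5 CPM, and the ratio against them was −0.48. AC126942.2 went the other way, with 8.25 to 53.5 CPM in GV1 to GV6, 114, 202 and 120 CPM in GV7, GV8 and GV9, and 7.04 to 31.8 CPM in MII. Its ratio of −1.65 (spread 1.64) was −0.57 against GV1 to GV6.

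BC002059 and Gm5165, both on chromosome 17, have related promoters. Their promoters aligned at 92.4% identity over 250 bases, which are in capitals here because the genes also have ratios close to each other. Neither is related only to the other, since the promoter of BC002059 aligned to those of 37 genes in all and that of Gm5165 to those of 21. The levels of those further genes were not examined. BC002059 lies at chr17:16951286-16951585, plus strand, and Gm5165 at chr17:17234653-17234952, plus strand.
BC002059: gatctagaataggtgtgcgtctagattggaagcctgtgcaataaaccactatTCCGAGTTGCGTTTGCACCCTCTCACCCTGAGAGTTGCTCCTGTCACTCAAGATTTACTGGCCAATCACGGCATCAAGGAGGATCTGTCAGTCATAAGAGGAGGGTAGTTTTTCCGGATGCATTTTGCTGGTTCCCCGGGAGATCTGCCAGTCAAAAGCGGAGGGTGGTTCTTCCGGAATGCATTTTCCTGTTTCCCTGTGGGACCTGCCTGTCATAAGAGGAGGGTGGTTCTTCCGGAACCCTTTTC
Gm5165: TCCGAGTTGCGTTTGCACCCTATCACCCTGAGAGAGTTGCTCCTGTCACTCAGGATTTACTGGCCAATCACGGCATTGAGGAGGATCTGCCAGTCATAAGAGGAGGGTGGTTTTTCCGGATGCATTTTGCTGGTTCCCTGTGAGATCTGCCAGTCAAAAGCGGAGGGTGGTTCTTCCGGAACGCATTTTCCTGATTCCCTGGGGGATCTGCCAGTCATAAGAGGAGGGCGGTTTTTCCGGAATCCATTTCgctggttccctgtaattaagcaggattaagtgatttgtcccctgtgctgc

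BC002059 had 9.44, 37.3 and 183 CPM in GV and 8.64, 14.6 and 37.3 CPM in MII (ratio −1.38, spread 1.31; −0.94 without GV2). Gm5165 had 28.2, 49.0 and 129 CPM in GV and 8.97, 15.5 and 36.0 CPM in MII (ratio −1.35, spread 0.89). Their longest reading frames span 410 and 667 codons, and RefSeq types Gm5165 as protein-coding. Gm19757 had 0.28 to 106 CPM in GV and 0 to 29.8 CPM in MII, and its ratio of −1.17 was within its spread of 2.65. Gm2309 (ratio −0.84, spread 0.55) and Gm44621 (ratio −0.85, spread 1.70) were lower by less than 2-fold.

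**Figure D4:**
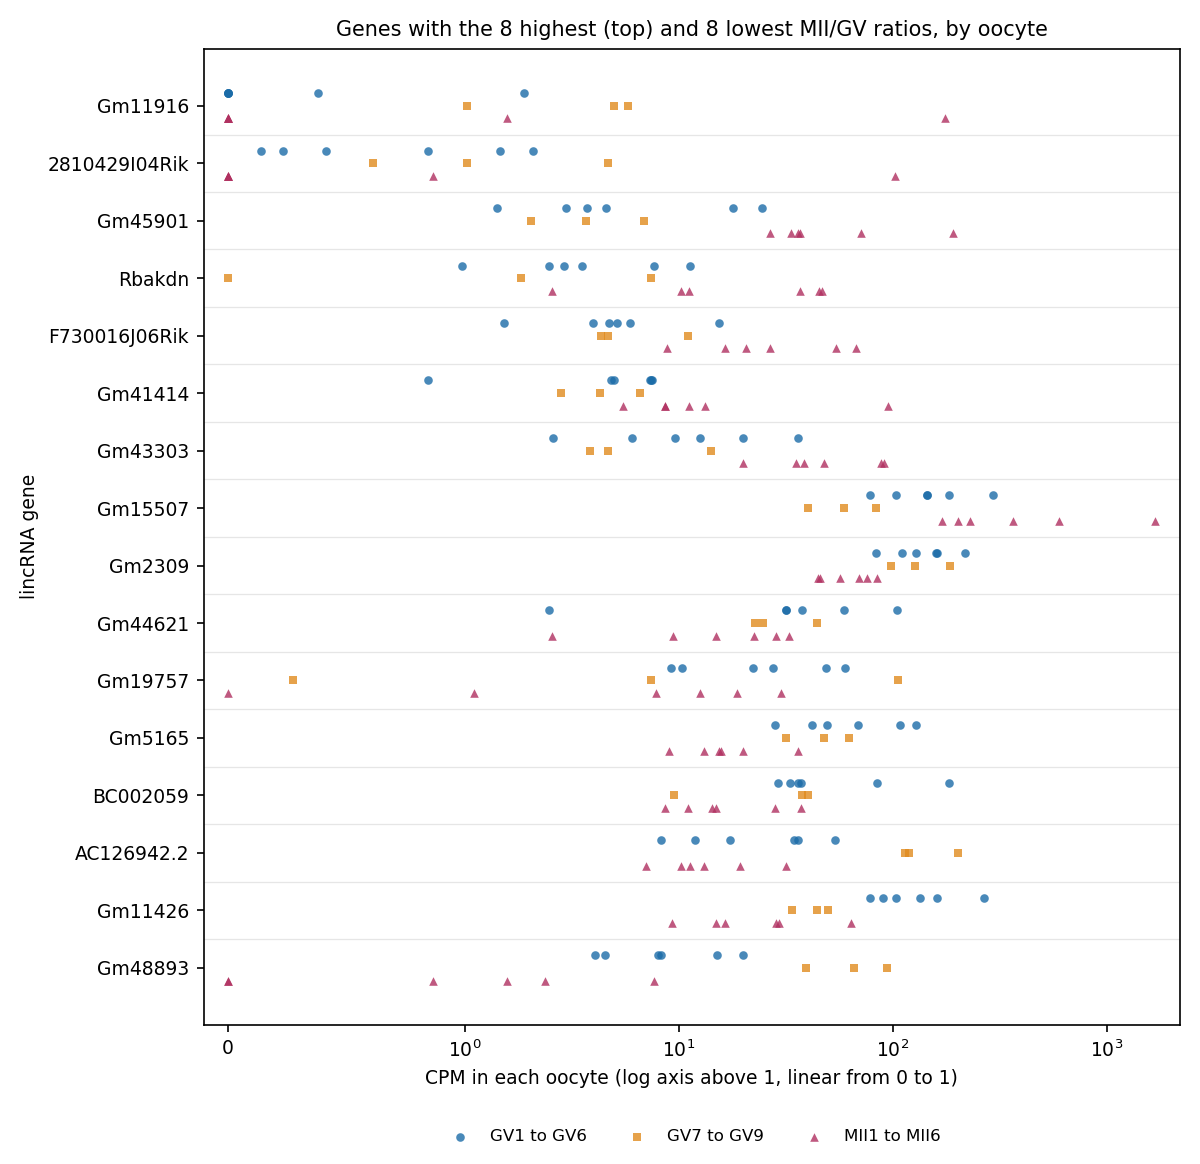
Each point is the level (CPM; log axis above 1, linear from 0 to 1) of 1 gene in 1 oocyte, for the 8 genes with the highest and the 8 with the lowest MII/GV ratios; circles are GV1 to GV6, squares GV7 to GV9 and triangles MII1 to MII6. Gm11916 and 2810429I04Rik each have a single MII oocyte, MII2, at 175 and 103 CPM, far from the rest, while for Gm45901 the MII and GV points do not overlap.

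The GV sets with different headers differed in some genes by more than the stages did. Relative to the median gene, 13 of the 104 genes had at least 2-fold more in the second set (GV7 to GV9) than in the first, where 12.1% of the 6430 genes were, and 27 were lower, where 14.8% were. Without overlap of the oocytes, 11 were higher, where 8.68% of the 6430 genes were, and 16 lower, where 6.95% were. Against each GV set taken alone, 24 genes were at least 2-fold higher in MII and 3 at least 2-fold lower. The share of the 6430 genes was not computed for this. Since the genes were chosen on these levels, nothing is read from the counts. What separates the sets was not given in the sources used here, and a difference in mice, reagents, processing or counting cannot be told apart. The same holds between the stages, since no header kind occurs in both.

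The genes furthest apart were nearly absent from GV7 to GV9. AC104866.2 had 36.3 to 237 CPM in GV1 to GV6, 1.02, 0 and 0.611 CPM in GV7, GV8 and GV9, and 21.2 to 129 CPM in MII. From 6 counts in the second set, the ratio of CPM between the sets was 158 (95% counting interval 72.4 to 430). Gm49371 had 13.7 to 165 CPM in GV1 to GV6, 0.765 CPM in GV7 and 0 in GV8 and GV9, and 12.1 to 87.6 CPM in MII (3 counts; ratio 241, interval 82.5 to 1171). AC127234.1 had 17.9 to 59.8 CPM in GV1 to GV6, 1.02 CPM in GV7, 0 in GV8 and GV9, and 25.04 to 122 CPM in MII (4 counts; ratio 109, interval 42.6 to 402). E330012B07Rik had 23.2 to 88.3 CPM in GV1 to GV6, 0.765, 0.826 and 0.916 CPM in GV7 to GV9 and 33.7 to 67.9 CPM in MII (9 counts; ratio 51.4, interval 27.0 to 113). In all 4 the MII oocytes overlapped GV1 to GV6 and none of GV7 to GV9, so their stage ratios depend on the GV set: 0.02, −0.19, 0.75 and 0.39 with the first set, and 7.16, 7.47, 7.31 and 5.95 with the second.

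In the other direction Gm11916 had the highest ratio of CPM, 12.2 (interval 6.01 to 27.3), at low levels of at most 1.88 CPM in GV1 to GV6 and 5.80 CPM in GV7 to GV9. Next were Gm48893, Gm17751 and AC126942.2, with ratios of 6.90 (interval 6.03 to 7.91), 6.72 (5.93 to 7.61) and 5.65 (5.19 to 6.16). In the last pair the MII levels overlapped the first set, at 7.84 to 28.0 CPM for Gm17751 and 7.04 to 31.8 CPM for AC126942.2. MII levels of Gm48893 also overlapped the first set, at 7.68 CPM in MII6 against 4.06 CPM in GV5. All 6 of its MII oocytes lay below the median of all GV oocytes.

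**Figure D5:**
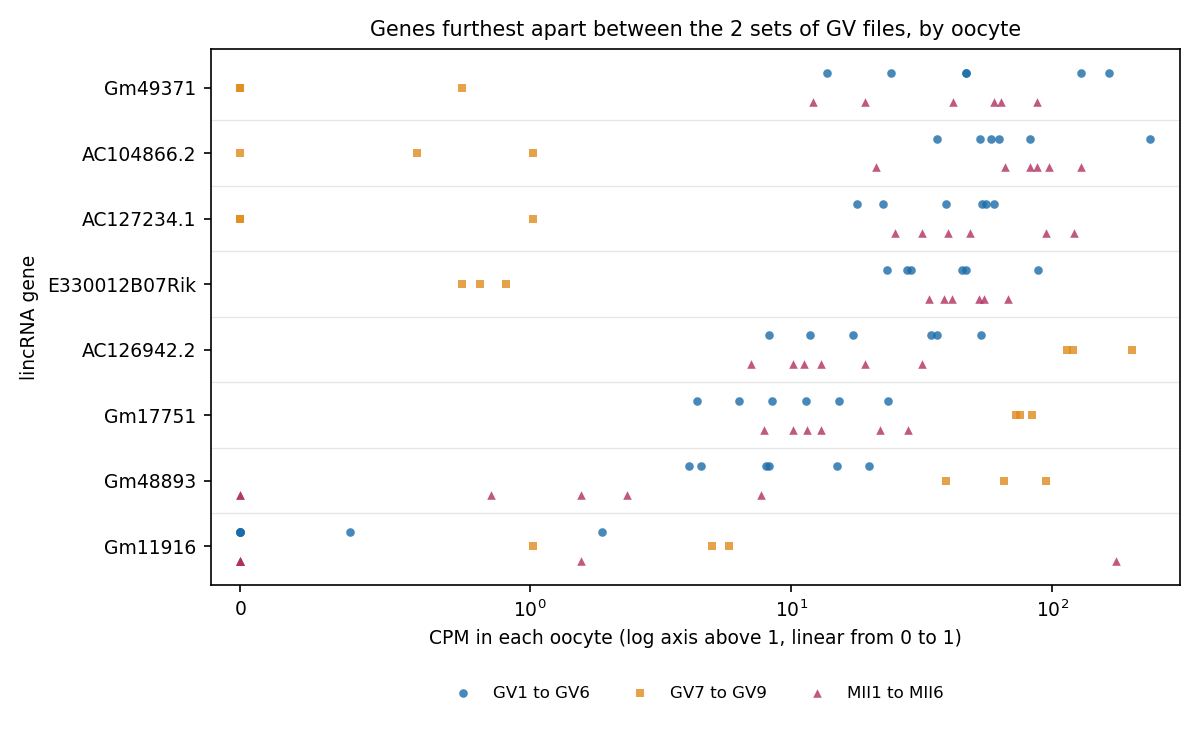
Each point is the level (CPM; log axis above 1, linear from 0 to 1) of 1 gene in 1 oocyte, for the 4 genes lowest and the 4 highest in GV7 to GV9 relative to GV1 to GV6; symbols are circles for GV1 to GV6, squares for GV7 to GV9 and triangles for MII. Gm49371, AC104866.2, AC127234.1 and E330012B07Rik lie at or below 1.02 CPM in GV7 to GV9 and at 12.1 CPM or more in every other oocyte.

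Chromosome X held 7 of the 104 genes (6.73%, against 1.64% of annotated lincRNA genes), and 5 of them are similar to each other in sequence. E330016L19Rik and Gm2309 share 99.8% identity over 1941 bases. Gm2165, E330010L02Rik and Gm7437 align to them at 95.6% or more, over 1434, 674 and 406 bases. The promoters of E330016L19Rik, Gm2309 and Gm7437 are 99.2 to 99.7% identical over 255 to 290 bases. RefSeq had no entry for Gm2165 and E330010L02Rik. Gm2309 had 83.5, 128 and 217 CPM in GV and 44.8, 62.8 and 84.6 CPM in MII. E330016L19Rik had 64.6, 100 and 178 CPM in GV and 37.3, 59.4 and 70.0 CPM in MII. How reads that match several copies were assigned was not given in the sources used here, so the level of each copy is uncertain. In all, 15 of the 104 genes had a stretch of at least 150 bases with at least 95% identity to another gene, 14 of them to a gene with counts; Gm38025 matched 61 genes and Gm49371 matched 9.

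In structure the 104 genes were spliced and of moderate length. Their reference transcripts had a median of 3 exons and 1450 bases (437 to 5226), and 1 (Zfp469) had a single exon, 0.962% against 6.80% of the other lincRNA genes with a count. GC content had a median of 47.4%. The longest reading frame from a start codon had a median of 69.5 codons, and 17 genes (16.3%) had 100 codons or more, against 18.9% of the other lincRNA genes. The 5 most abundant by GV level were among these 17. Their frames had 142 codons in Gm1965, 105 in C86187, 203 in 4933427D06Rik, 194 in Gm1070 and 123 in Gm839. Whether any frame is translated was not tested. The label of noncoding was not shared by all sources: of the 70 genes that RefSeq's table names, 62 were typed as long noncoding, 3 as transcribed pseudogenes and 5 as protein-coding (Gm1070, Gm5165, Zfp469, Gm39469 and 1810058I24Rik). Nor were all intergenic in M21, since 33 overlap another gene and 9 a protein-coding one. The nearest coding gene was over 50 kb away for 47 and within 5 kb for 23, and 3 start within 1 kb of a coding gene's start on the opposite strand (2210406O10Rik beside Grpel1, F630040K05Rik beside 1600014C23Rik and Gm12474 beside Tent5c).

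Variation between oocytes was described at equal depth. With every oocyte thinned to 536101 counts, the median coefficient of variation was 65.8% in GV, against 50.7% over all such genes, and 62.7% in MII against 53.6%. Within GV1 to GV6 it was 53.6% against 47.4%. Lower levels carry more counting noise, and the median GV level of the 104 genes was 30.9 CPM against 61.3 CPM for all such genes; the part of level in the difference was not tested.

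Well-known long noncoding RNAs were mostly low in these oocytes. The list held 93 names of any gene type, with every annotated symbol that begins with Platr. Names for the same gene were not merged. Of the 93 names, 83 were in the annotation, 64 had a count and 4 had at least 20 CPM. Only Platr30 and Gm2694 among them belong to the 104 genes. Platr30, a transcript named for its association with pluripotency in stem cells, had 35.8, 45.3 and 88.5 CPM in GV and 32.0, 58.2 and 76.1 CPM in MII (ratio 0.37, spread 0.62), and shares 99.7% identity over 1934 bases with a gene that had no count. Gm2694, which overlaps the synaptic gene Cbln1, had 14.5 to 21.2 CPM in GV1 to GV6, 27.3, 47.3 and 35.4 CPM in GV7, GV8 and GV9, and 164 CPM in MII5 against 12.1 to 22.0 CPM in the other MII oocytes. Its ratio of 0.99 (spread 1.53) became −0.10 without MII5. The other two are typed otherwise: Tug1, an antisense type here, had 33.2 CPM in GV and 19.4 in MII, and D6Ertd527e (Sirena1), typed protein-coding, had 4982 and 2002 CPM. Xist, which coats the inactive X chromosome, had 0.813 CPM in GV and no count in MII. The genes left out by name were below 20 CPM in any case: Malat1 had 9.11 CPM in GV and 4.21 in MII, Meg3 6.62 and 6.40, Kcnq1ot1 4.28 and 1.35, and Neat1 0.163 and 0.505.

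The threshold cuts a continuum. Just inside it, by the higher stage, were Gm41414 (20.2 CPM), Gm48510 (20.4) and Gm12130 (20.7), and just outside 9130204K15Rik (19.7), Gm10637 (19.5) and 1700057H21Rik (19.4).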

How the data were processed

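RNA of 15 single oocytes, 9 GV and 6 MII per the labels, was measured by MATQ-seq, with 28 cycles of PCR and shearing to 300 bp per the labels' protocols. The authors deposited whole-number counts per Ensembl gene, 1 file per oocyte, not normalized, per the file headers and values. The tools cutadapt 4.0 and STAR 2.7.10a and the build GRCm39 are listed in the submitters' processing notes. The counting tool, its annotation, strand use and treatment of reads that match several genes were not given in the sources used here. Genes that a file does not list count as 0 there.

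Counts were summed per stage and scaled to CPM without the unnamed feature ENSMUSG00000119584. Each sum plus 0.5 entered the log2 ratio of MII to GV, expressed relative to the median gene with at least 5 CPM. The spread combines the SDs of log2(CPM + 1), less the oocyte's median gene. No test was made, since the labels name no mouse and each stage counts as 1 sample. Intervals are exact at 95% and cover counting error only, as PCR reads are not independent molecules. All 51 pairs of oocytes within a stage differed beyond sampling noise (lowest chi-square per degree of freedom 7.26).

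Gene types, names and lengths came from GENCODE M21 (GRCm38), which named 28444 of 28785 gene IDs (98.8%), and promoters from RefSeq (GRCm38.p6). Similar sequences were found with BLAST 2.17.0, and other scalings with edgeR 4.0.16 and DESeq2 1.42.0. The ratio script was checked on simulated counts.

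The 104 genes, lists and tests were chosen with earlier results of these data known. Named genes are the 8 highest in each stage, the 8 highest and 8 lowest ratios, the 4 furthest apart between the GV sets in each direction, the 3 on each side of the threshold and those on the list of known RNAs; Gm33035, genes with related promoters or copies and genes in counts of 5 or fewer were added after their values were seen. Alternatives covered the scaling, the added count, the filter on low counts, thinning, means or medians over oocytes, each GV set and each oocyte left out.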

Additional observations from a re-analysis of the deposited data

Results flagged for a closer look

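Among 70 groups (34 named genes in each stage, and the summed level), 5 had an oocyte far from the others of its stage. For groups not chosen on their values, chance alone flags about 1 in 20. Many named genes were picked by their ratios in these data, which a single extreme oocyte can move, so that rate cannot judge the 5. 4 of the 5 were MII oocytes far above the rest. 2810429I04Rik had 102.5 CPM in MII2, where the other MII oocytes had 0 to 0.864 CPM. Gm11916 had 175.3 CPM in MII2, where the others had 0 to 1.57 CPM. Gm2694 had 163.9 CPM in MII5, where the others had 12.1 to 22.0 CPM. Gm41414 had 94.8 CPM in MII5, where the others had 5.48 to 13.2 CPM. In GV, Gm44621 had 2.47 CPM in GV6, where the others had 22.6 to 104 CPM.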

How the results depend on the processing

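No paired analysis was possible, since the labels name no mouse and their numbers only name oocytes. At minimum levels of 10 and 50 CPM, 173 and 48 genes qualified in place of 104. Without division by the median gene, 10 genes were at least 2-fold lower; when CPM also held the unnamed feature, 12 were higher and 24 lower, the median ratio was −0.32, and the summed MII level was 6669 CPM. Without MII5 and MII6, 22 were higher, and without GV1 and GV2, 36 were, both left out after seeing the data. Without Gm1965, the most abundant gene in GV, the summed GV level was 8414 CPM. With each oocyte left out in turn, 26 to 41 genes were higher and 5 to 8 lower, the median ratio was 0.47 to 0.72, and the summed levels were 10273 to 10927 CPM in GV and 10126 to 11275 CPM in MII. A ratio was called reversed only if it was at least 2-fold in either direction and then changed sign. Smaller ratios that changed sign were not, such as that of Gm2694 (−0.10 without MII5) or Platr30 (−0.58 when CPM held the unnamed feature). Reversed ratios were those of 2810429I04Rik and Gm11916. With each oocyte left out they ran from −1.56 to 4.99 and from −0.85 to 5.82, both lowest without MII2. From the median CPM over oocytes with 0.01 CPM added they were −6.21 and −5.07. With 1 CPM added, chosen after those values were seen, they were −0.68 and −0.26. Of 1054 ratios of the 34 named genes under 31 settings, 1036 moved by less than the spread between oocytes, 12 moved further and 6 reversed. With GV7 to GV9 as the only GV oocytes, 46 genes were higher and 6 lower, and with GV1 to GV6 only, 33 and 5. Leaving out the 5 genes that RefSeq types as protein-coding, chosen after seeing the data, left 33 higher and 5 lower. For none of these settings was the share of the 6430 genes computed, so nothing is read from these counts. No gene of the ribosomal DNA list was among the 104, so leaving it out could not be run. Depth limits the lowest values: Gm48893 rests on 13 counts in MII.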
